A study of Bos taurus with 68 samples.

Results

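The 9 genes described here encode parts of the liver's extracellular matrix, and they were followed through 11 cDNA clones that name them, out of 5693 listed clones and 4452 genes on the array. They are the collagen chains COL1A2 (gene ID 282188), COL3A1 (gene ID 510833) and COL4A2 (gene ID 508632), the matrix proteins SPARC (gene ID 282077), DCN (gene ID 280760), FN1 (gene ID 280794) and MGP (gene ID 282660), the protease MMP2 (gene ID 282872) and the inhibitor TIMP1 (gene ID 282092). The clones were chosen by symbol alone, after gene symbols were updated through gene identifiers, and each clone was kept apart. COL1A2 had clone a (array features 3013 and 3014) and clone b (features 7843 and 7844), and FN1 had clone a (features 6945 and 6946) and clone b (features 12765 and 12766). The other 7 genes had 1 clone each. Liver RNA came from 5 cows, numbered 6934, 6983, 7079, 7186 and 7188, on 7 days set by calving: -65, -30, -14, 1, 14, 28 and 49. Each liver sample was hybridised against a common reference standard RNA on a pair of arrays with exchanged dyes. The labels name no treatment, breed, parity or feeding group, so day is the only condition that differs between groups, and the same animals stand behind every day. In the larger of the deposited tables every cow was present on days -65, -30, 1 and 28. Day -14 had cows 6983, 7186 and 7188, day 14 had cows 6983, 7079 and 7186, and day 49 lacked cow 6983.

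Fibrillar collagens such as COL1A2 and COL3A1 form the tension-bearing fibres of connective tissue, and COL4A2 is a chain of the network-forming collagen of basement membranes. In liver, quiescent stellate cells store vitamin A in the space beside the sinusoids. After injury they can turn into myofibroblasts that deposit fibrillar collagen, and portal fibroblasts and vessel walls also make these genes' products. FN1, by contrast, is also secreted into plasma by hepatocytes. SPARC binds collagen, DCN (decorin) is a small proteoglycan that coats collagen fibrils, MMP2 is a gelatinase that cleaves denatured and basement membrane collagen, TIMP1 inhibits matrix metalloproteinases, and MGP (matrix Gla protein) is an inhibitor of calcification.

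Values are log2 ratios of liver over reference, centred so that the median row of an array is 0. This direction is only likely. It rests on 6 hepatocyte genes, none of them a matrix gene, that all lay above 0 once values from arrays that carried liver in Cy3 were turned in sign, from APOA1 at 0.06 to CP at 4.95. A second list, of genes typical of muscle, brain and T cells, did not point the same way, since 4 of its 6 clones also lay above 0. If the deposited ratio ran the other way, every higher below would read lower, differences between days included. Exchanged arrays of a cow-day (1 cow on 1 day) should correlate below 0 over all rows before the sign is turned, and 25 of 30 cow-days did, 3 of them only just (between -0.02 and 0). The exceptions were day 1 of cow 7079, day 14 of cows 6983 and 7186, and day 49 of cows 6934 and 7188, with correlations from 0.03 to 0.18. Results that rest on these samples are given with and without them. In bulk liver, fewer cells of a type and less RNA per cell cannot be told apart.

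The name stellate cell could be set against few defining genes. Of 22 stellate and myofibroblast markers, 8 were on the array, among them VIM, DES, TAGLN and TPM1, and not the vitamin A enzyme LRAT or the actin ACTA2. Of their 11 tested clones, 7 were lower than the reference, 1 was higher and 3 were not called. Over all 5280 tested clones 25.2% were lower and 22.3% higher. The genes are therefore called matrix genes here, and no cell type is assigned to their signal.

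How well a clone repeated itself differed among the matrix genes. The 2 spots of a clone, each averaged over both orientations, correlated over cow-days at 0.84 to 0.99 in 9 of the 11 clones. The median over all tested clones was 0.70. MGP reached 0.62. The exception was COL4A2, whose spots correlated at -0.01. Its mean was 1.36 with liver in Cy3 and -0.90 with liver in Cy5, so the dye moved it by 2.26, beyond the 95th percentile of all clones (1.57), and only 9 of 28 pairs gave the same sign. The deposited COL4A2 ratio was therefore negative on average in both orientations, and its values below are given with that limit. Between the orientations, values over cow-days correlated at 0.72 for DCN, 0.61 for COL3A1 and FN1 clone b, 0.58 for FN1 clone a and 0.44 for COL1A2 clone a and SPARC. They correlated at 0.18 for TIMP1, 0.10 for COL1A2 clone b and MGP, and 0.00 for MMP2, where the median over all clones was 0.20. The order of cow-days was thus better measured for DCN, COL3A1 and FN1 than for MMP2 or COL1A2 clone b, although the sign against the reference was the same in both orientations in 30 of 30 pairs for COL1A2 (both clones), COL3A1, SPARC and TIMP1.

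The first comparison set liver against the reference RNA, over 1 mean per cow. The fibrillar collagens were lower in liver. COL1A2 clone a had cow means of -3.66 in cow 6934, -4.39 in 6983, -3.90 in 7079, -3.28 in 7186 and -3.70 in 7188. Its mean was -3.79 ± 0.40 (SD, n = 5 cows), which is 13.8-fold lower than the reference, with an adjusted p of 6.86e-13 (limma, Benjamini-Hochberg over 5280 clones) and a standard error of 0.13. COL1A2 clone b gave cow means from -2.81 to -1.74 with a median of -2.07, and a mean of -2.18 ± 0.45. All cow-days of both clones lay below 0, and cow 6983 was the lowest cow for each. COL3A1 cow means were -2.71 in 6934, -3.22 in 6983, -3.34 in 7079, -2.79 in 7186 and -2.70 in 7188. Its mean of -2.95 ± 0.30 was 7.75-fold below the reference (standard error 0.11, limma adjusted p 2.22e-12). The spread between cows was small against the distance from 0, and no cow-day lay above -1.04.

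SPARC, the collagen-binding protein, had cow means of -2.46 in 6934, -3.13 in 6983, -2.88 in 7079, -2.57 in 7186 and -2.54 in 7188. Its mean was -2.72 ± 0.28, 6.57-fold below the reference (standard error 0.11, limma adjusted p 4.09e-12). Cow 6983 was again the lowest. DCN, the proteoglycan, was lower by less. Its cow means were -1.07, -1.20, -1.19, -0.37 and -1.11 in the same order of cows, with a mean of -0.99 ± 0.35. Cow 7186 stood apart from the other 4, and 3 of its days were the only DCN values above 0.

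TIMP1, the protease inhibitor, had cow means of -2.67 in 6934, -4.19 in 6983, -3.25 in 7079, -3.48 in 7186 and -2.90 in 7188, with a mean of -3.30 ± 0.59. The protease MMP2 lay at -1.27 ± 0.14, with cow means from -1.42 to -1.05. Both were below 0 on 30 of 30 cow-days, and MMP2 had the smallest spread between cows of the 11 clones. In all, 7 of the 10 tested matrix clones were lower than the reference at an adjusted p under 0.05, where 25.2% of all 5280 clones were. None was higher, where 22.3% of all clones were.

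Fibronectin was not set apart from the reference. FN1 clone a lay at 0.04 ± 0.43 and clone b at 0.18 ± 0.46 (SD, n = 5 cows), with 95% intervals of -0.24 to 0.31 and -0.10 to 0.47. Cows 6934 and 7186 were above 0 and cows 6983 and 7188 below 0 on both clones. Both clones also depended on the dye: clone a averaged -0.39 with liver in Cy3 and 0.47 with liver in Cy5. COL4A2 lay at 0.23 ± 0.33, a value that averages opposite signs of the orientations. MGP was the matrix clone above the reference, at 1.35 ± 0.53, with cow means of 1.27 in 6934, 2.22 in 6983, 0.87 in 7079, 1.36 in 7186 and 1.03 in 7188. It was missing on day 14 of cow 7079 and so fell outside the tests, which required 3 cows on each day. With no such filter its limma adjusted p was 9.49e-06. It was below 0 on 1 of 29 cow-days, day -30 of cow 6934, at -0.12.

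**Figure D1:**
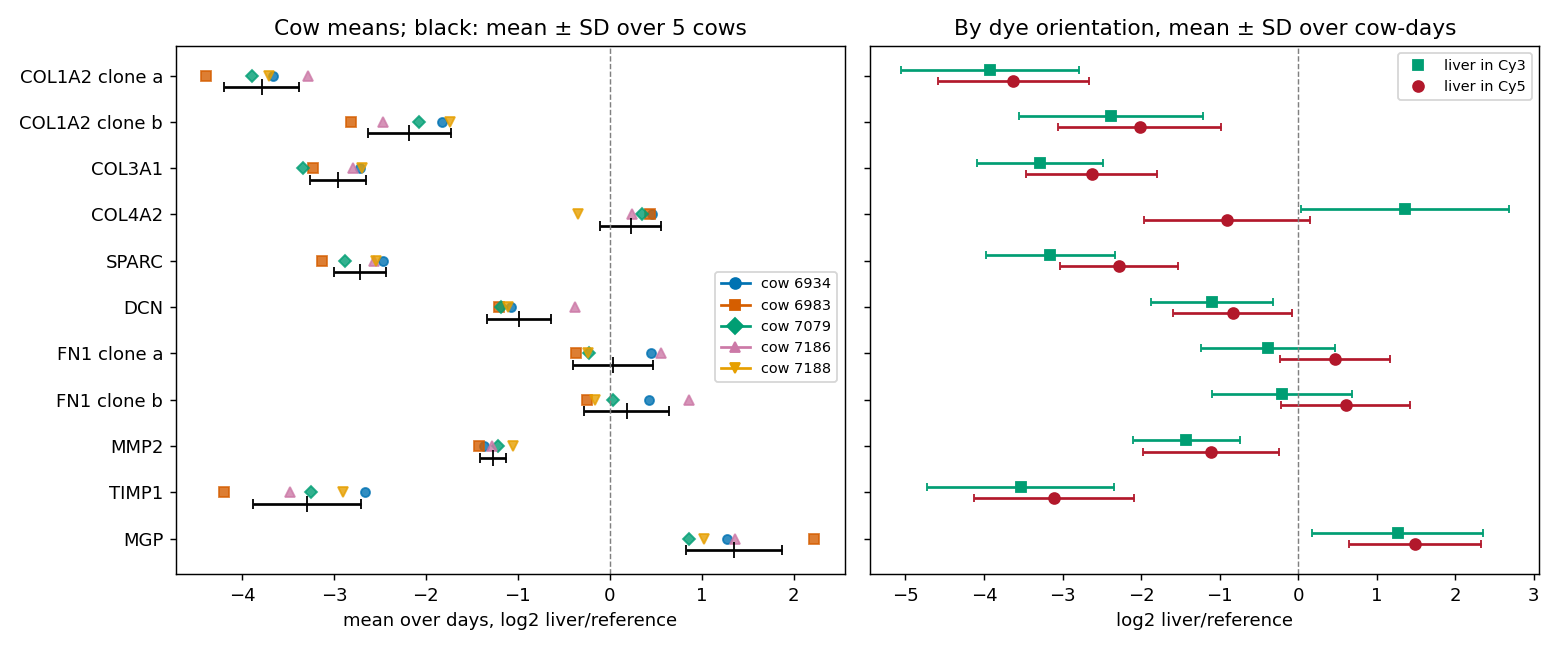
Left, the mean log2 ratio of liver over reference of each cow for the 11 matrix clones, with the mean and SD over 5 cows in black; right, the mean and SD over cow-days separately for arrays with liver in Cy3 and in Cy5. COL1A2, COL3A1, SPARC, TIMP1, MMP2 and DCN lie below 0 in every cow, while COL4A2 changes sign with the dye (1.36 against -0.90).

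The order of the days was read clone by clone. COL3A1 had day means of -3.38 on day -65, -2.83 on day -30, -2.95 on day -14, -3.59 on day 1, -2.20 on day 14, -2.70 on day 28 and -2.70 on day 49. The SD between cows within a day ran from 0.33 to 1.29, and the largest step between neighbours in that order was 0.50, between day 14 and the next day, so neighbouring days did not separate beyond the spread of the cows. For SPARC the lowest mean was also on day 1, at -3.29, and the highest on day 14, at -2.23. COL1A2 clone a went from -4.40 on day -65 to -3.21 on day 14, and clone b from -2.44 on day 28 to -1.73 on day 49. The clones of COL1A2 thus put different days at the ends of their order.

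DCN had its lowest mean on day -65, at -1.43, and its highest on day -30, at -0.31. FN1 clone a ranged from -0.56 on day 49 to 0.46 on day -30, and FN1 clone b from -0.46 to 0.76 on the same days. Both fibronectin clones therefore agreed on the ends of the order. MMP2 went from -1.59 on day 49 to -0.74 on day 14, and TIMP1 from -3.77 on day 1 to -2.56 on day 49. COL4A2 ranged from -0.68 on day 28 to 1.35 on day 14, and MGP from 1.07 on day 49 to 2.46 on day 14, the latter from 2 cows. Day 14 held the highest mean of 6 of the 11 clones, and it was also the day on which 2 of 3 cows had exchanged arrays that did not oppose each other.

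**Figure D2:**
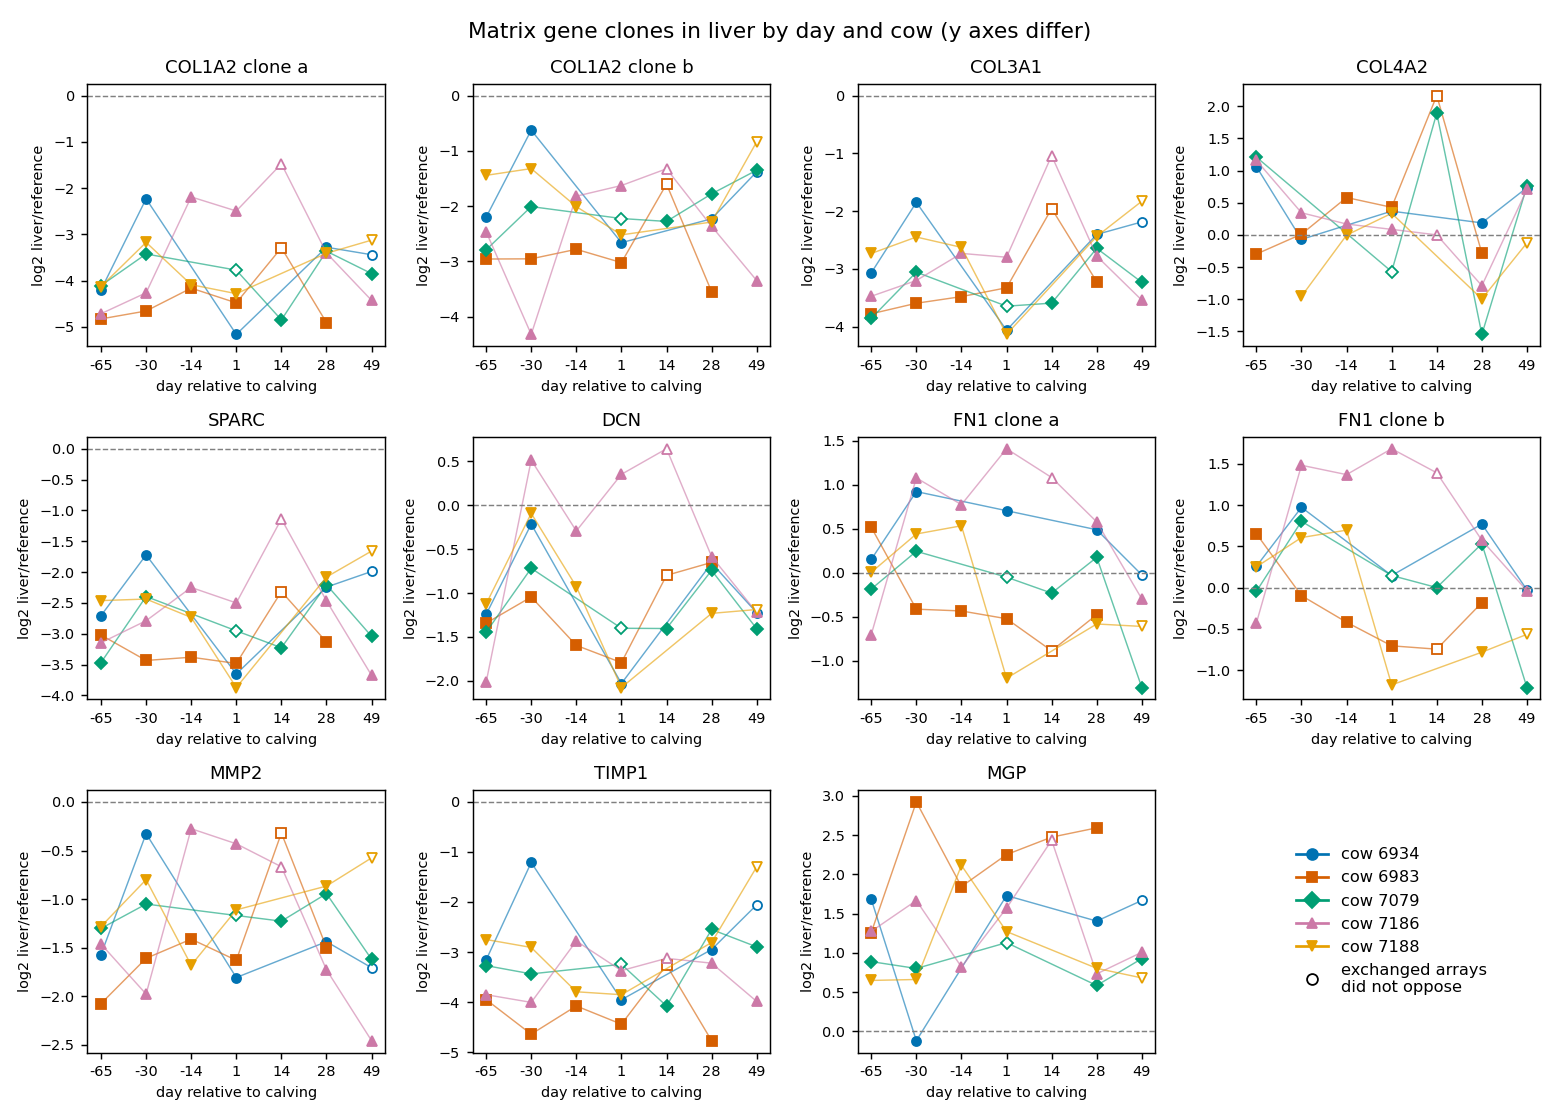
Log2 ratio of liver over reference of each matrix clone (panels) by day relative to calving, with a line per cow and open symbols where the exchanged arrays of a cow-day failed to oppose each other; y axes differ between panels. On day 14 the open symbols of cows 6983 and 7186 lie above cow 7079 for COL3A1 (-1.96 and -1.04 against -3.59), and cow 7186 is the highest cow for DCN on 5 of its 7 days.

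A moderated F test asked whether any clone differed over the 7 days. None of the 10 tested matrix clones was called by limma, where 0.0189% of 5280 clones (1 clone) was. At an unadjusted p under 0.05 the test took 3 of the 10, against 277 of all clones. These were COL4A2 (p 0.00683, adjusted p 0.765), COL3A1 (p 0.0209, adjusted p 0.889) and DCN (p 0.0211, adjusted p 0.889). When samples were given array weights instead of counting equally, limma called 261 clones, among them COL3A1 (adjusted p 0.0195), DCN (adjusted p 0.0243) and SPARC (adjusted p 0.0483). The estimation of those weights stopped short of convergence and gave weights from 0.20 to 10.3.

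The second question was whether the matrix genes changed between day -65 and day -30. DCN lay at -1.24 in cow 6934, -1.34 in 6983, -1.45 in 7079, -2.02 in 7186 and -1.12 in 7188 on day -65. On day -30 it lay at -0.21, -1.04, -0.72, 0.51 and -0.09 in the same cows. Every cow was higher on day -30. The estimate was 1.12 ± 0.34 (standard error), with a limma adjusted p of 0.493, so it did not pass. Neither did COL4A2, at -0.87 ± 0.43 (adjusted p 0.493), nor FN1 clone b, at 0.62 ± 0.36 (adjusted p 0.511), which was 0.29 without cow 7186 and 0.96 without cow 6983. Of the 10 matrix clones 9 were higher, with a median of 0.45 against 0.05 over all clones, of which 55.1% were higher. No clone on the array was called (0% of 5280), and at an unadjusted p under 0.05 limma took 1 matrix clone and 521 clones in all. DCN, COL3A1 and COL1A2 clone a were higher in 5 of 5 cows, a pattern that 4.58% of all clones measured in these cows showed.

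Across calving, from day -30 to day 1, DCN went back down in all cows. On day 1 it lay at -2.03 in 6934, -1.79 in 6983, -1.40 in 7079, 0.35 in 7186 and -2.08 in 7188. The day 1 value of cow 7186 overlapped the day -30 values, while the other 4 lay below all of them. The estimate was -1.08 ± 0.34 with a limma adjusted p of 0.403, and 5.65% of all clones were lower in 5 of 5 cows. COL3A1 (-0.76 ± 0.36, adjusted p 0.590) and FN1 clone b (-0.74 ± 0.36, adjusted p 0.598) did not pass either. Without cow 6934 COL3A1 differed by -0.40, and without cow 7188 FN1 clone b by -0.47. Without the cow-days that did not oppose (day 1 of cow 7079 here), DCN differed by -1.09, COL3A1 by -0.78 and FN1 clone b by -0.77. In all, 9 of 10 matrix clones were lower, with a median of -0.51 against -0.06 for all clones, of which 42.9% were higher. With each array scaled to the same spread, COL3A1 turned to 0.19 and the median of the matrix clones to 0.14. None was called, where 0.0189% of 5280 clones was, and an unadjusted p under 0.05 took 2 of the 10 and 442 of all.

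Between day 1 and day 14 the matrix clones had their largest median of fitted differences, 0.90 against 0.03 over all clones. By the fit 9 of 10 were higher, where 53.3% of all clones were. The difference rested on few cows, and the fit also drew on day 1 of cows 6934 and 7188, which had no day 14 values in the larger table. COL3A1 lay at -4.06 in 6934, -3.33 in 6983, -3.64 in 7079, -2.80 in 7186 and -4.13 in 7188 on day 1. On day 14 it lay at -1.96 in 6983, -3.59 in 7079 and -1.04 in 7186. Cows 6983 and 7186 were above all day 1 values on day 14, and cow 7079 was within them. The fitted difference was 1.62 ± 0.43 with an unadjusted p of 0.000945, the smallest of all 5280 clones, and a limma adjusted p of 0.978. SPARC differed by 1.25 ± 0.43 and COL4A2 by 1.21 ± 0.44, both with an adjusted p of 0.978. Without cow 7079 SPARC differed by 1.92 and COL4A2 by 0.71, and without cow 7186 COL4A2 differed by 1.93. No clone was called (0% of 5280), and an unadjusted p under 0.05 took 4 of the 10 matrix clones and 145 clones in all.

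Within cows the day 14 difference was uneven. COL3A1 was higher by 1.37 in cow 6983 and by 1.76 in cow 7186, and by only 0.05 in cow 7079, a mean of 1.06 ± 0.89 (SD, n = 3 cows). SPARC differed by 0.75 ± 0.89 within these cows, against 1.25 in the fit. FN1 clones a and b were lower in 3 of 3 cows, by means of -0.29 ± 0.10 and -0.16 ± 0.13, although the fitted difference of clone b was 0.19. Among all clones, 7.36% were lower and 9.79% higher in each of these 3 cows. The means of the 10 tested matrix clones over these cows ran from -0.29 for FN1 clone a to 1.37 for COL4A2. For COL3A1 and SPARC, the cows with the large differences are those whose day 14 arrays did not oppose. In cow 7079 the day 1 arrays did not oppose (r 0.07), so each of the 3 within-cow differences includes such a cow-day. COL3A1 of cow 7079 went from -4.63 to -4.03 with liver in Cy3 and from -2.65 to -3.15 with liver in Cy5. COL4A2 differed most in cow 7079, by 2.46. Without the 5 cow-days of that kind only cow 7079 was left on day 14. Its day 1 was left out as well, so no cow kept both days. The differences then set its day 14 against day 1 of other cows through the fitted cow terms. COL3A1 then differed by 0.16 and SPARC by 0.06, and the median of the 10 matrix clones went from 0.90 to -0.06. Under array weights the COL3A1 difference was 2.10 ± 0.36 with an adjusted p of 0.0274. That fit gave a weight of 4.19 to day 14 of cow 7186 and 0.49 to day 14 of cow 7079.

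From day 1 to day 28, with 5 cows on both days, COL3A1 and SPARC were higher in 5 of 5 cows. On day 28 COL3A1 lay at -2.40 in 6934, -3.22 in 6983, -2.64 in 7079, -2.78 in 7186 and -2.44 in 7188. SPARC lay at -3.65, -3.48, -2.95, -2.50 and -3.87 on day 1 and at -2.24, -3.13, -2.21, -2.47 and -2.08 on day 28. Cows 6934 and 7188 moved most and cow 7186 by 0.02 for COL3A1, and the days overlapped. The fitted differences were 0.90 ± 0.36 for COL3A1 (limma adjusted p 0.596) and 0.87 ± 0.36 for SPARC (adjusted p 0.605). Leaving out the cow-days that did not oppose gave 0.92 and 0.93. These values average both orientations, and the orientations differed. With liver in Cy3 both clones were higher on day 28 in every cow. With liver in Cy5 COL3A1 was lower in cows 6983, 7079 and 7186, and SPARC in cows 7079 and 7186. The SPARC difference was 1.41 with liver in Cy3 only and 0.33 with liver in Cy5 only. COL4A2 was lower in 5 of 5 cows, by -0.82 ± 0.37 (adjusted p 0.622). Of the 10 clones 6 were higher, where 61.8% of all clones were, with a median of 0.26 that turned to -0.065 with arrays scaled and to -0.15 with liver in Cy5 only. Of all clones measured in these cows, 6.22% were higher and 3.07% lower in every cow. No clone was called (0% of 5280), and an unadjusted p under 0.05 took 3 of 10 matrix clones and 413 of all.

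From day 28 to day 49, FN1 clone a was lower in 4 of 4 cows and FN1 clone b in 3. Among all clones measured in these cows, 7.8% were lower and 5.58% higher in every cow. FN1 clone b lay at 0.77 in 6934, 0.53 in 7079, 0.57 in 7186 and -0.78 in 7188 on day 28, and at -0.03, -1.21, -0.04 and -0.56 on day 49. Cow 7188 alone was higher on day 49, and the days overlapped. FN1 clone a differed by -0.73 ± 0.36 and clone b by -0.79 ± 0.39, each with a limma adjusted p of 0.703, and COL4A2 by 1.25 ± 0.40 (adjusted p 0.553). Without cow 7079 FN1 clone b differed by -0.50. With liver in Cy3 FN1 clone a went from -0.32 to -2.54 in cow 7079 and from 0.54 to -1.12 in cow 7186. With liver in Cy5 it went from 0.67 to -0.07 and from 0.62 to 0.53 in these cows. In cow 7188 it was higher on day 49 with liver in Cy5 (-0.603 to -0.415). Over the alternatives its difference ran from -1.23 to -0.22. The day 49 arrays of cows 6934 and 7188 did not oppose. Without such cow-days the differences were -1.01 for FN1 clone a, -1.12 for FN1 clone b and 1.43 for COL4A2, and SPARC, not among the 3 leading clones, differed by -1.02 (adjusted p 0.549). Of the 10 clones 3 were higher, where 43.5% of all clones were, with a median of -0.25. That median turned to 0.23 with liver in Cy5 only, 0.10 without cow 7186 and 0.0077 with array weights. No clone on the array was called (0% of 5280), and an unadjusted p under 0.05 took 1 of 10 matrix clones and 382 of all.

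The last comparison set the mean of days 14, 28 and 49 against the mean of days -65, -30 and -14. COL3A1 differed by 0.59 ± 0.24, FN1 clone b by -0.58 ± 0.24 and FN1 clone a by -0.46 ± 0.22, each with a limma adjusted p of 1.00. Of the 5 cow-days that did not oppose, 4 fall in lactation, and without all 5 COL3A1 turned to -0.13 while FN1 clone b stood at -0.76. Of the 10 clones 8 were higher, with a median of 0.19 against -0.01 over all clones, of which 47.8% were higher. Without those cow-days the median was -0.38, and with each cow-day divided by its slope -0.091. None was called (0% of 5280), and an unadjusted p under 0.05 took 3 of the 10 and 204 of all.

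**Figure D3:**
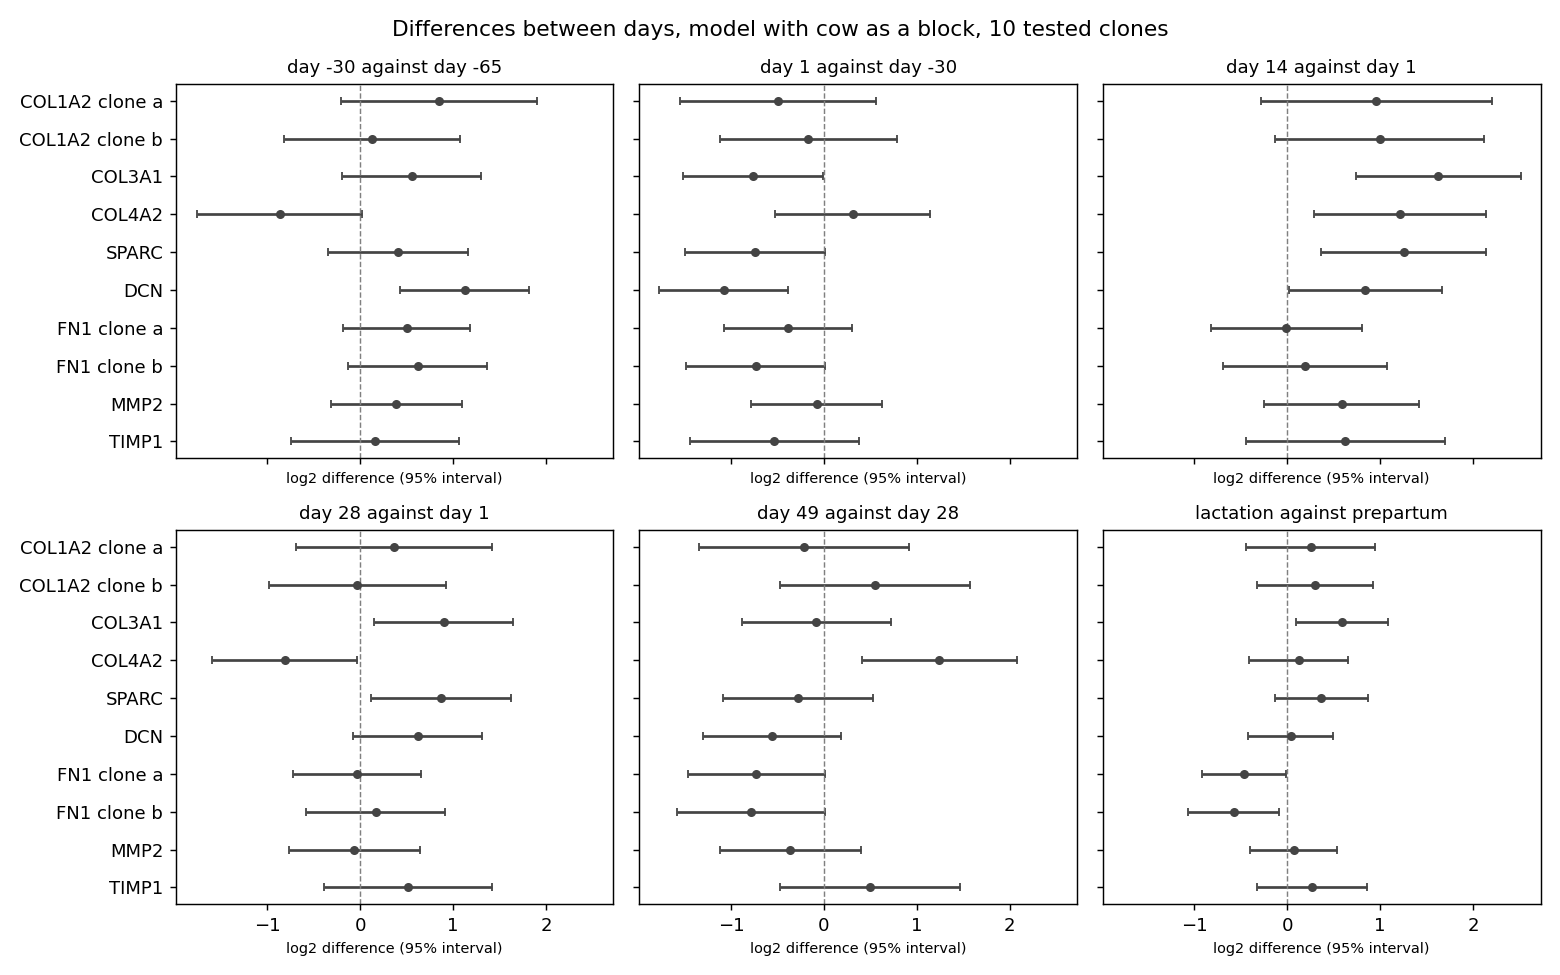
Fitted log2 differences between days with 95% intervals for the 10 tested matrix clones, 1 panel per comparison, from the model with cow as a block. Intervals of COL3A1 and SPARC lie above 0 for day 14 and day 28 against day 1 (0.90 for COL3A1 on day 28) and that of DCN lies below 0 for day 1 against day -30, yet no adjusted p was under 0.05.

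A property of whole cow-days moved with the low matrix clones. For each cow-day, the values of the tested clones outside the matrix lists were regressed on the mean profile of those clones over all 30 cow-days. A slope under 1 means that the ratios of that cow-day were drawn towards 0. Slopes ran from 0.59 on day -30 of cow 6934 and 0.60 on day 49 of cow 7188 to 1.37 on day -30 of cow 7186. The mean of 6 low clones (both COL1A2 clones, COL3A1, SPARC, TIMP1 and MMP2) was -1.33 and -1.55 at the 2 smallest slopes and -3.43 at the largest.

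Correlated with the slope over cow-days, COL1A2 clone b gave an r of -0.88, TIMP1 -0.84, MMP2 -0.69, COL1A2 clone a and COL3A1 -0.68 and SPARC -0.63. The points share cows and arrays, so no p is given. By the way the slope is built, clones far below 0 tend to a negative r and clones far above 0 to a positive one. The 49 clones with a mean of -2 or lower had a median r of -0.68, and 85 clones with a mean of 2 or higher had 0.65. The 49 include the matrix clones that low, so they are no separate comparison group. DCN gave -0.18, FN1 clone a 0.03 and FN1 clone b 0.09, and clones with a mean between -0.5 and 0.5 had a median of 0.04. Dividing each cow-day by its slope left COL3A1 at 1.32 for day 14 against day 1 and at 0.85 for day 28 against day 1. Its lactation difference went from 0.59 to 0.29. For day 14 against day 1, other clones shrank more: COL1A2 clone a went from 0.96 to 0.42, TIMP1 from 0.62 to 0.10 and SPARC from 1.25 to 0.89. COL4A2 alone rose, from 1.21 to 1.38. The part of amplitude in the differences between days was not tested.

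**Figure D4:**
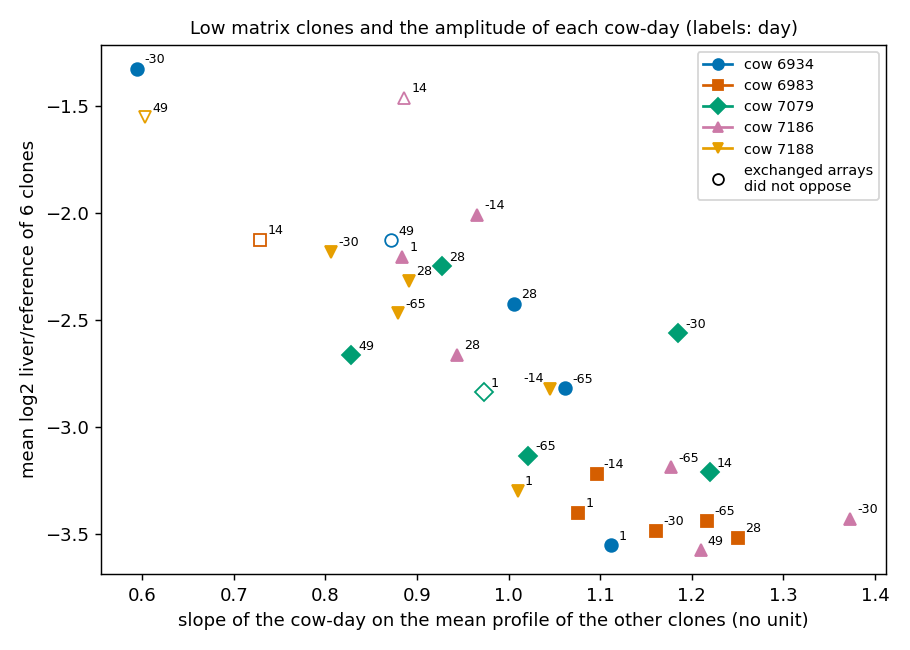
Mean log2 ratio of 6 low matrix clones in each of the 30 cow-days against the slope of that cow-day on the mean profile of the other clones; symbols mark cows, numbers mark days and open symbols mark exchanged arrays that did not oppose. The clones lie nearest to 0 where the slope is small (-1.33 at 0.59), and day 14 of cow 7186 lies above the other points of similar slope.

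Over the cow-days some matrix clones varied together. COL3A1 and SPARC correlated at 0.94 over 30 cow-days, and still at 0.89 after division by the slope. The FN1 clones correlated at 0.96 and 0.97, and clone b exceeded clone a by 0.16 ± 0.23 (SD over 30 cow-days). The COL1A2 clones, which name the same gene, correlated at 0.68 and after division by the slope at 0.05, and clone b was less low by 1.57 ± 0.69. COL1A2 clone a had an r of 0.69 with DCN and 0.48 with FN1 clone b. After that division it had 0.79 and 0.73, while clone b had 0.13 and 0.27. The clones of FN1 thus repeated each other after division by the slope, and those of COL1A2 did not. Without that division and with the cow means taken out, the COL1A2 clones correlated at 0.77.

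DCN and FN1 clone b correlated at 0.78, and cow 7186 bore on both. On days -30, -14, 1 and 14 that cow had DCN at 0.51, -0.29, 0.35 and 0.64, and FN1 clone b at 1.48, 1.37, 1.68 and 1.39. No other cow had DCN above 0 on any day. With the cow means taken out, the correlation was 0.75. TIMP1 and MGP, the inhibitors of proteolysis and of calcification, went in opposite directions at -0.67, and at -0.52 with the cow means taken out. Cow 6983 had the lowest TIMP1 on 5 of its 6 days and the highest MGP on 4 of them. COL4A2 correlated with no other tested matrix clone above 0, from -0.09 with MMP2 and COL1A2 clone b to -0.32 with FN1 clone a. These correlations describe 30 points from 5 cows that share arrays and amplitude.

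**Figure D5:**
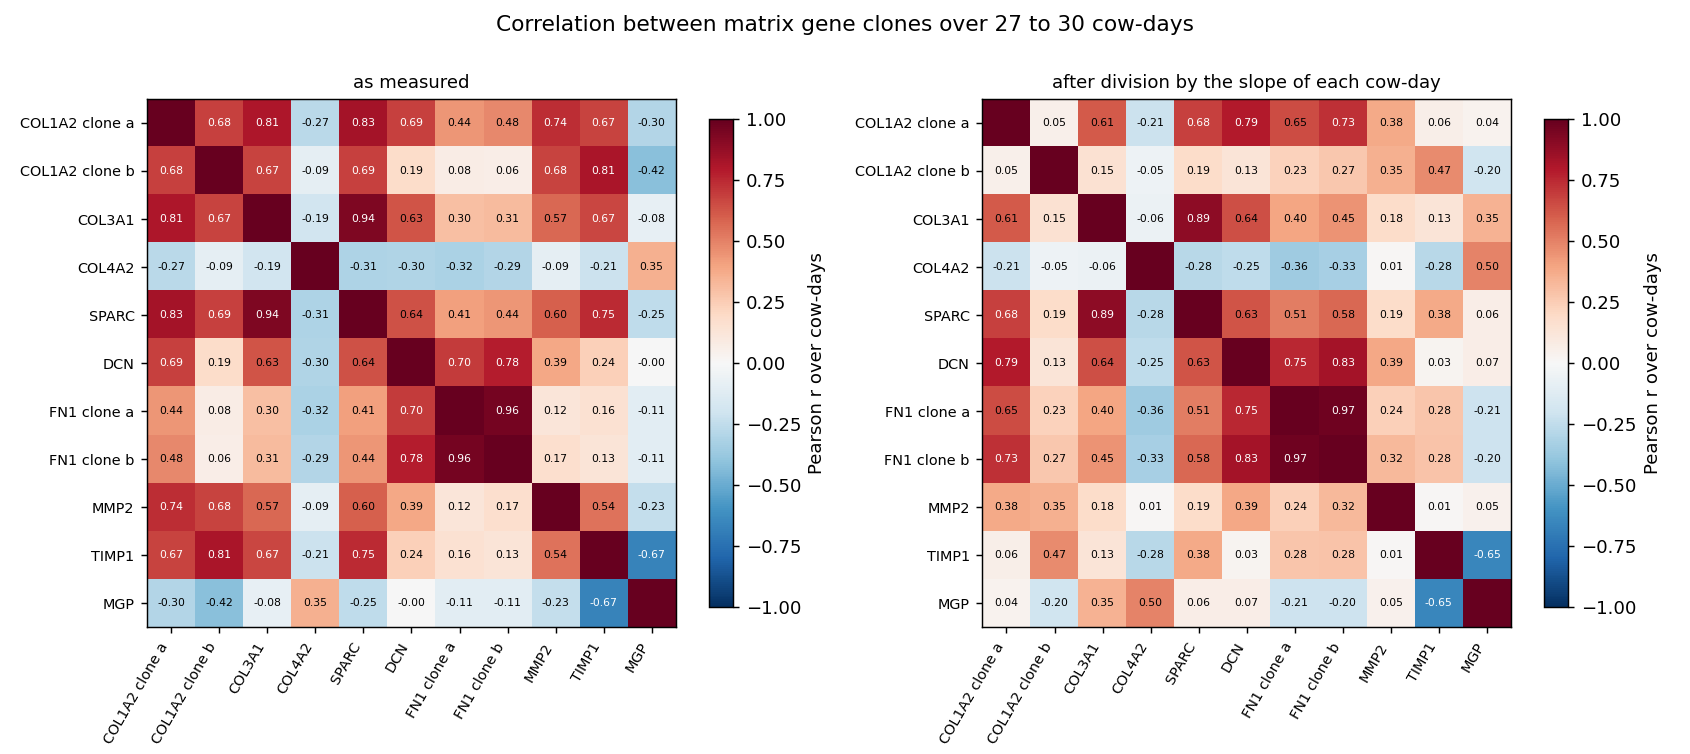
Pearson correlations between the 11 matrix clones over cow-days, as measured (left) and after division of each cow-day by its slope (right). COL3A1 with SPARC (0.94 and 0.89) and the FN1 clones (0.96 and 0.97) stay high, and the COL1A2 clones drop from 0.68 to 0.05.

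A smaller deposited table, from another array platform, held 4 more cow-days, all with exchanged arrays that opposed each other (r from -0.67 to -0.45). It was not joined to the tests. COL1A2 (both clones), COL3A1, SPARC, TIMP1, MMP2 and DCN lay below 0 and MGP above 0 in 4 of 4 cow-days there. COL4A2 again split by dye, at 0.28 with liver in Cy3 and -0.93 with liver in Cy5. Cow 6934 had both days -14 and 14 in that table. COL3A1 went from -0.97 to -3.28, SPARC from -2.13 to -4.00 and COL1A2 clone a from -3.52 to -5.00. All 11 matrix clones were lower on day 14, by -2.31 to -0.13, where 43.9% of 5580 clones were lower.

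In the larger table the same pair of days went the other way in both cows that had them. COL3A1 was higher on day 14 by 1.52 in cow 6983 and by 1.69 in cow 7186, and SPARC by 1.06 and 1.11. In cow 6983 9 of 11 matrix clones were higher and in cow 7186 8 of 11, where 46.6% and 53.1% of all clones were. Each of these differences comes from 1 cow and has no replicate. The opposite direction of cow 6934 and the low day 14 value of cow 7079 came from arrays that opposed each other. The high day 14 values of cows 6983 and 7186 came from arrays that did not. Both days of cow 6934 were on the other array platform, so cow, platform and opposition cannot be told apart here.

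The wider matrix and stellate lists, of 200 genes, had 65 genes and 88 clones on the array, 87 of them tested. Against the reference 34 of the 87 were lower and 18 higher in limma at an adjusted p under 0.05, with a median of -0.03. Over all 5280 clones 25.2% were lower and 22.3% higher. The lowest were the intermediate filament VIM (-4.20 ± 0.42 and -4.11 ± 0.28, SD over 5 cows), the adhesive glycoprotein SPP1 (-2.56 ± 0.65, the other clone -0.11), tenascin TNC (-2.51 ± 0.50, the other clone -0.28) and CCN2 (-2.34 ± 0.22). The highest were the heparan sulfate proteoglycan SDC2 (3.41 ± 0.47), ECM1 (1.63 ± 0.38 and 1.40 ± 0.29), SMOC2 (1.19 ± 0.11) and SMOC1 (0.92 ± 0.26). Low levels were thus seen in several other genes of the list, while its median lay near that of all clones (-0.01). COL4A1, which neighbours COL4A2 in the bovine gene table, had clones at -0.86 and 0.00, and no other fibrillar collagen of the list was on the array.

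For day 14 against day 1, 57 of 87 wider clones were higher with a median of 0.15, where 53.3% of all clones were higher with a median of 0.03. The largest estimates were SPP1 at 1.02 (its other clone -0.14), VIM at 1.01, LAMA5 at -1.01 (1 of its 4 clones) and TPM1 at 0.98. Markers of other liver cells were read beside the matrix genes. On the same comparison 9 endothelial clones had a median of -0.16 with 7 of 9 lower, 21 macrophage clones -0.09 with 13 of 21 lower, 9 bile duct clones 0.15 with 7 of 9 higher and 5 hepatocyte clones -0.09 with 3 of 5 lower. Of the 11 stellate and myofibroblast clones 9 were higher, with a median of 0.34. Their mean ranged from -1.58 to -0.88 over cows on day 1 and from -1.27 to -0.77 on day 14. The part of these cells in the matrix values was not tested.

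The clones most like the mean profile of the matrix clones over 30 cow-days were 2 VIM clones (r 0.92 and 0.89), PEPD (0.91), PEDS1 (0.90), HTR6 (0.88) and MAGED2 (0.85), out of 4870 clones with a median r of 0.06. After division by the slope, PEPD kept 0.85, PEDS1 0.80, HTR6 0.78, MAGED2 0.76 and the VIM clones 0.68 and 0.65. The mean profile itself correlated with the slope at -0.62. Clone names are those of the platform's table, and whether each clone's sequence is that gene was not examined here.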

How the data were processed

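Liver RNA of 5 cows was hybridised on 68 two-channel cDNA arrays (34 cow-days), scanned on a Scanarray 4000 and read with GenePix 4.0, per the labels. Values in the deposited tables are log2 ratios of each spot, judged from the values. What the authors did to background, flags or normalization is not stated in the labels. Arrays give no count depth, so the number of arrays limits the precision. Ratios from arrays carrying liver in Cy3 were turned in sign. Arrays were centred on their medians, both spots of a clone averaged, and both orientations required. Tests took clones measured in 3 or more cows on every day (5280, 10 of them matrix clones).

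Comparisons between days were fitted with limma 3.58.1 in R 4.3.3 on 30 cow-days, with day and cow as fixed terms and 19 residual degrees of freedom. Liver against the reference was fitted with limma on 5 cow means (4 residual degrees of freedom). The fit between days was tested on simulated data. The result of the fit against the reference was not checked on them. P-values are 2-sided, adjusted over all clones by Benjamini-Hochberg, with a threshold of 0.05. Cow pairs the days because the titles name the same animals: deviations from day means correlated at 0.14 within cows and -0.03 between them. Estimates with adjusted p are given for the 3 matrix clones with the largest moderated t. From the wider lists the 4 lowest, 4 highest and 4 largest day 14 genes are named, and likeness takes the 6 highest correlations. Members and lists were chosen with earlier results of these data known. Symbols of 5591 of 5693 clones were updated through the RefSeq gene table of assembly ARS-UCD2.0. Alternatives varied centring, scaling, spots, dyes, filter, block, weights, days and cows.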

Additional observations from a re-analysis of the deposited data

Results flagged for a closer look

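Of 66 groups of 4 or 5 cow values examined, 8 held a cow far from the others, where chance marks about 1 in 20 groups. DCN accounted for 4 of them. Cow 7186 was high on day 1, at 0.35 against a next value of -1.40, and in its mean over days, at -0.37 against -1.07. Cow 7188 was low on day 28, at -1.23 against -0.74, and cow 7079 on day 49, at -1.41 against -1.22. COL4A2, the clone whose sign changed with the dye, accounted for 3: cow 6983 at -0.30 on day -65 against a next value of 1.06, cow 7188 at -0.12 on day 49 against 0.71, and cow 7188 at -0.35 in the mean over days against 0.24. COL1A2 clone a was low in cow 6983 on day 28, at -4.91 against -3.41. That cow-day had a slope of 1.25 and exchanged arrays that opposed each other at -0.53. The part of amplitude, dye or single arrays in these values was not tested.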

How the results depend on the processing

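Over the alternatives run, 949 of 1001 values kept their side of the threshold or, for counts and medians, stayed within the tolerance set for them (for medians, the spread between replicates). Of these 949, 7 changed sign, all medians of the matrix clones between days. COL1A2, COL3A1, SPARC, DCN, MMP2 and TIMP1 stayed lower than the reference and called in all of them. The count of matrix clones called against the reference was 7 to 8 with a cow left out and 11 with liver in Cy5 only, when MGP, COL4A2 (-0.91, reversed) and both FN1 clones passed. COL4A2 also reversed on the days with 5 cows (-0.057). FN1 clone a reversed without centring (-0.019), with liver in Cy3 only (-0.37) and with cows left out (-0.094 to 0.14), and clone b with liver in Cy3 only (-0.21).

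The day effect called 1 clone. It called 0 without centring, with arrays scaled, with liver in Cy5 only, without cow-days that did not oppose, with no replicate block, with each cow left out, and, among alternatives chosen after seeing the data, with cow-days divided by their slope or without slopes under 0.7. With array weights it called 261, 3 of them matrix clones. Without the block no comparison between days called a matrix clone, so the block changed no such call. Array weights called 6 clones for day -30 against day -65, 9 for day 1 against day -30, and 4 for day 14 against day 1 (1 matrix clone). Day 1 against day -30 called 10 with arrays scaled, 2 with the second spot, 0 to 1 with a cow left out (0 without cow 7188) and 0 with liver in Cy5 only, only its own days or the slope division. Day 14 against day 1 called 2 without cow-days that did not oppose. Day 28 against day 1 called 6 with liver in Cy3 only, 1 with the slope division and 0 to 1 with a cow left out, and day 49 against day 28 called 2, 3 and 0 to 1. COL4A2 turned to 0.14 for day -30 against day -65 with liver in Cy5 only, COL3A1 to 0.19 for day 1 against day -30 with arrays scaled, and to -0.13 for lactation against prepartum without cow-days that did not oppose. The median of the matrix clones moved from 0.45 to 0.86 for day -30 against day -65 with liver in Cy3 only. Causes were not tested. Signal over background was not available, so dim spots could not be told from bright ones.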

Other observations

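Cow-days of the smaller table other than those compared were day -14 of cow 7079 and day 14 of cow 7188. COL3A1 lay at -3.12 and -2.88, SPARC at -3.73 and -4.01, DCN at -0.13 and -0.68, TIMP1 at -3.93 and -4.65, and MGP at 1.20 and 1.39 in them. They have no partner day in that table, and levels across the tables were not compared because the tables came from different array platforms.

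Cow 6983 had the lowest mean over days of both COL1A2 clones, SPARC, DCN, FN1 (both clones), MMP2 and TIMP1, and the highest mean of MGP. Its exchanged arrays opposed each other on all days but day 14. Its slopes ran from 1.08 to 1.25 on those days, and the slope was 0.73 on day 14. Cow 6983 had no day 49, the day with the highest means of TIMP1 and COL1A2 clone b. The part of amplitude or of the missing day in its means was not tested.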
